A study of Mus musculus with 8 samples.

Results

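A set of 10 genes of the photoreceptor outer segment was followed: Prph2, Rom1, Rp1, Rdh12, Abca4, Reep6, Samd7, Tulp1, Guca1a and Slc24a1. They were chosen by name, as disc, trafficking and retinoid genes tied to retinal dystrophies, and all 10 were found among the 23284 gene rows of the count files. RNA had been sequenced from microdissected peripheral retina of mice at postnatal day 12, in 4 libraries of each of 2 genotypes. The first genotype, Rb null, carries Cre recombinase under the alpha enhancer of Pax6 and a floxed Rb1 gene (Rblox/lox), the retinoblastoma tumour suppressor. The second, labelled Rb null, TET-MYCN, has the same Cre driver together with a Cre-dependent transactivator at Rosa26 (Rosa26LSL-RTTA) and a TRE-MYCN transgene. The series title and the genotype label give the floxed Rb1 allele for both genotypes, whereas the design text names it for the first alone. A doxycycline treatment is not given in the sources used here. Because Cre comes from a peripheral retinal enhancer, the tissue can hold cells without recombination. The labels do not say that each library came from its own animal, so the p-values measure the spread between libraries, which may in part be technical. The question put to these genes is how their transcripts compare between the libraries labelled Rb null and those labelled Rb null, TET-MYCN. The level of the MYCN transgene was not measured here.

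The outer segment is a modified cilium filled with stacked membrane discs that carry the visual pigment. Its discs are shaped at the rim by tetraspanins, its proteins arrive through a narrow connecting cilium along an axoneme, and its light response is reset by calcium-controlled synthesis of cyclic GMP. Light releases all-trans-retinal from the pigment, and photoreceptors clear and reduce it before the pigment epithelium regenerates the 11-cis form. In mice the outer segments lengthen during the second and later postnatal weeks, and loss of function in many of these genes causes photoreceptor degeneration.

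The libraries held 14872131 to 22873979 gene counts. Rb-null 3 and 2 stood apart in lens transcripts, with 719 and 361 CPM (read counts per TMM-scaled library size) summed over 16 lens markers, against 14.2 to 141 CPM in the other 6 libraries. Of these markers only Lim2 was at 0 in any library, in TET-MYCN 2 and 4. Mouse Mycn stood at 108 to 339 CPM in the Rb-null group, and at 201 to 276 CPM in the group labelled TET-MYCN (log2 fold change 0.07 ± 0.28, SE; adjusted p = 0.934, edgeR's quasi-likelihood test). Rb1 stood at 138 to 184 and 123 to 179 CPM (-0.06 ± 0.14; adjusted p = 0.883). Neither gene separates the groups: transgene reads need not be counted at mouse Mycn, and a floxed allele can leave most Rb1 exons in place, so the direction of every comparison rests on the labels. Of 15106 genes tested, 9 differed between the genotypes (0.0596%), 1 of them lower in the TET-MYCN group (0.00662%). All 10 outer segment genes passed the filter on low counts.

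All 10 outer segment genes had a negative log2 fold change, that is a lower level in the TET-MYCN group, as did 47.8% of all genes tested. The log2 fold changes ran from -1.40 for Slc24a1 to -0.53 for Samd7, with a median of -0.94, against a median of 0.01 over all genes tested. None of them passed the test: 0 of 10 had an adjusted p under 0.05 with edgeR (adjusted p 0.238 to 0.420), where 0.0596% of all genes did, and 0 of 10 passed with DESeq2 or with limma-voom. DESeq2 called 3.51% of genes, 1.37% as lower, and limma-voom called 0%. At an unadjusted p under 0.05, 8 of 10 were lower with edgeR, against 7.72% of all genes tested. The same count was 9 with DESeq2 (8.67% of all genes in that fit) and 4 with limma-voom (7.55%), 5 with a replicate block (6.05%) and 4 with no filter on low counts (6.33%). It moved with the library left out, from 0 to 10. Without Rb-null 1, 2, 3 or 4 it was 7, 10, 0 and 3, against 6.74%, 8.99%, 3.89% and 4.79% of all genes. Without TET-MYCN 1, 2, 3 or 4 it was 8, 3, 6 and 0, against 5.93%, 8.16%, 10.9% and 4.74%. Without the lens-rich pair, Rb-null 2 and 3, a setting chosen after seeing the data, it was 7, against 4.29%. A log2 fold change below -1 was found for 4 of 10, against 1.09% of all genes. The groups of 4 libraries overlapped for every one of the 10 genes, while 3.29% of all genes had TET-MYCN libraries entirely below the Rb-null ones. In bulk tissue, fewer photoreceptors and less of a transcript per photoreceptor cannot be told apart.

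**Figure D1:**
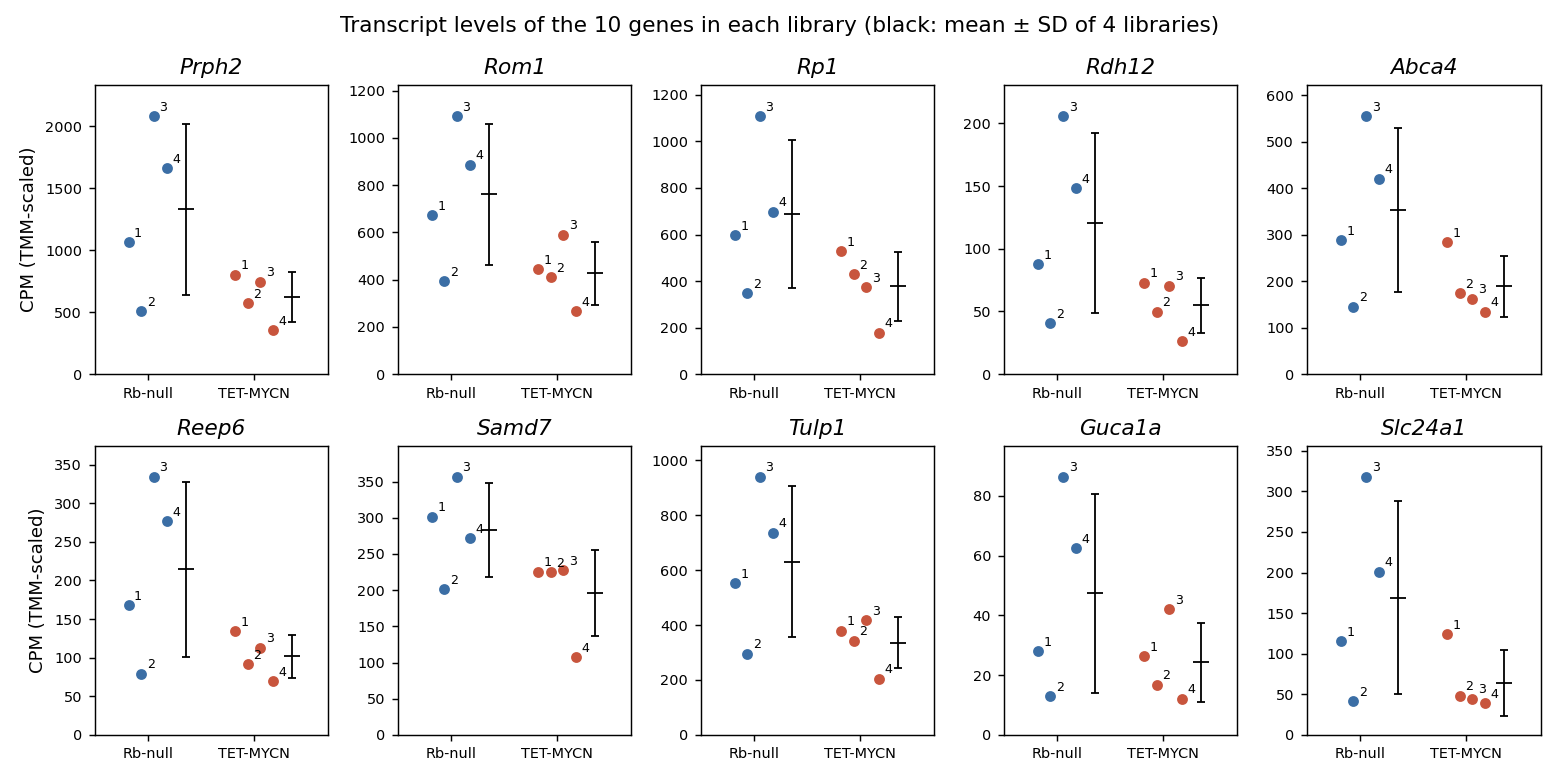
CPM (TMM-scaled, linear axis from 0) of each gene in the 8 libraries, with the library number beside each point (blue, Rb-null; red, TET-MYCN) and the mean ± SD of 4 libraries in black. Rb-null 3 is the highest point and TET-MYCN 4 the lowest in all 10 panels, and Rb-null 2 lies among the TET-MYCN points.

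The disc rim genes are given first. Prph2 encodes peripherin-2, the tetraspanin that bends the disc membrane at its rim. In Rb-null 1 to 4 it stood at 1065, 509, 2082 and 1658 CPM. The TET-MYCN values, in the same order of numbers, were 802, 572, 746 and 354 CPM. Rb-null 1, 3 and 4 were above every TET-MYCN library, and Rb-null 2 was below all but TET-MYCN 4. The means were 1328 ± 687 and 619 ± 202 CPM (SD, n = 4 each). The log2 fold change was -1.10 ± 0.40, with a 95% interval of -1.99 to -0.21 that is not adjusted for the number of genes (adjusted p = 0.242, edgeR). With DESeq2 its adjusted p was 0.0636, the smallest of any of the 10 genes under any setting tried.

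Rom1, the partner tetraspanin of peripherin-2 in rim complexes, stood at 672, 393, 1093 and 887 CPM in Rb-null 1 to 4. In TET-MYCN 1 to 4 it had 443, 409.6, 590.3 and 265 CPM. The same Rb-null library, number 2, lay inside the TET-MYCN range. The means of 761 ± 299.9 and 427 ± 133 CPM went with a log2 fold change of -0.83 ± 0.31 (edgeR, adjusted p = 0.255). The ratio of Rom1 to Prph2 CPM was 0.525 to 0.772 in the Rb-null group, against 0.552 to 0.791 with TET-MYCN, so the balance of the pair of rim genes overlapped between the genotypes.

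Rp1 encodes a microtubule-associated protein of the outer segment axoneme. Rb-null 1 to 4 had 597, 347, 1109.8 and 698 CPM of it, and TET-MYCN 1 to 4 had 528, 430.4, 373 and 178 CPM. Rb-null 1, 3 and 4 were above all TET-MYCN libraries, whereas TET-MYCN 1, 2 and 3 were all above Rb-null 2. The log2 fold change was -0.87 ± 0.38 (adjusted p = 0.304, edgeR) and -0.54 without Rb-null 3.

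Tulp1, a tubby-like protein needed for the delivery of proteins to the outer segment, stood at 552, 295, 941 and 736 CPM in Rb-null 1 to 4 and at 379, 343, 419 and 204 CPM in TET-MYCN 1 to 4. Its TET-MYCN libraries lay closer together than its Rb-null libraries, with a coefficient of variation of 27.8% against 43.5%. The same direction held for every gene of the set but Samd7 (30.3% against 22.9%). The log2 fold change was -0.91 ± 0.33 (adjusted p = 0.243, edgeR). Reep6, a membrane-shaping protein of the rod endoplasmic reticulum and vesicle traffic, had 168, 79.4, 334 and 276 CPM in the Rb-null group. In the TET-MYCN libraries it had 134, 91.3, 113 and 69.2 CPM. Its log2 fold change was -1.08 ± 0.38 (adjusted p = 0.238, edgeR). That was the smallest p of the 10 genes, in place 1192 among all genes tested.

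Abca4, the transporter that flips retinal conjugated to phosphatidylethanolamine across the disc membrane, stood at 288, 145, 555 and 421 CPM in Rb-null 1 to 4. In TET-MYCN 1 to 4 it had 283, 174, 162 and 134 CPM. TET-MYCN 1 was level with Rb-null 1 for this gene, and the other TET-MYCN libraries lay near Rb-null 2. The log2 fold change was -0.90 ± 0.37 (adjusted p = 0.284, edgeR) and -0.59 without Rb-null 3. Rdh12 encodes the inner segment dehydrogenase that reduces retinal to retinol. It had 87.8, 40.7, 206 and 149 CPM in Rb-null 1 to 4, and 73.0, 49.8, 70.5 and 26.3 CPM in TET-MYCN 1 to 4. Its spread among the Rb-null libraries was 5.06-fold from lowest to highest. The log2 fold change was -1.14 ± 0.46 (adjusted p = 0.279, edgeR) and -0.75 without Rb-null 3. Rdh12 and Abca4, which act in succession on retinal, had a CPM ratio of 0.280 to 0.371 in the Rb-null group and of 0.196 to 0.434 in the other.

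Guca1a and Slc24a1 belong to the calcium feedback of the light response. Guca1a encodes the calcium sensor GCAP1, which activates guanylate cyclase when calcium falls, and it had the fewest reads of the set, with 212 to 1318 counts per library. It stood at 27.9, 12.9, 86.4 and 62.4 CPM in Rb-null 1 to 4 and at 26.4, 16.8, 42.1 and 12.1 CPM in TET-MYCN 1 to 4. Only Rb-null 3 and 4 were above all TET-MYCN libraries. Its log2 fold change was -0.96 ± 0.55, and its 95% interval of -2.19 to 0.26 reached furthest above 0 in the set (adjusted p = 0.420, edgeR). It was -0.50 without Rb-null 3.

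Slc24a1 encodes the rod sodium/calcium-potassium exchanger, which extrudes calcium from the outer segment. It had 115, 41.3, 318 and 201 CPM in Rb-null 1 to 4 and 124, 48.0, 44.6 and 39.2 CPM in TET-MYCN 1 to 4. TET-MYCN 1 was above Rb-null 1 and far above the other TET-MYCN libraries, which lay together near Rb-null 2. The means of 169 ± 119 and 63.9 ± 40.2 CPM gave the largest log2 fold change of the 10 genes, -1.40 ± 0.57 (adjusted p = 0.279, edgeR), and -0.90 without Rb-null 3. The ratio of Slc24a1 to Guca1a CPM was 1.06 in TET-MYCN 3 and 2.86 to 4.70 in the other TET-MYCN libraries, against 3.21 to 4.13 in the Rb-null libraries.

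Samd7, a nuclear protein of photoreceptors that works with Polycomb complexes in silencing non-rod genes, is the one nuclear regulator of the set. It stood at 302, 201, 357 and 272 CPM in Rb-null 1 to 4 and at 225, 224, 227 and 107 CPM in TET-MYCN 1 to 4. The first 3 TET-MYCN libraries were nearly equal, and TET-MYCN 4 was at less than 50% of them. The log2 fold change of -0.53 ± 0.25 was the smallest of the set (adjusted p = 0.336, edgeR; 95% interval -1.09 to 0.03), and it was -0.33 without TET-MYCN 4.

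**Figure D2:**
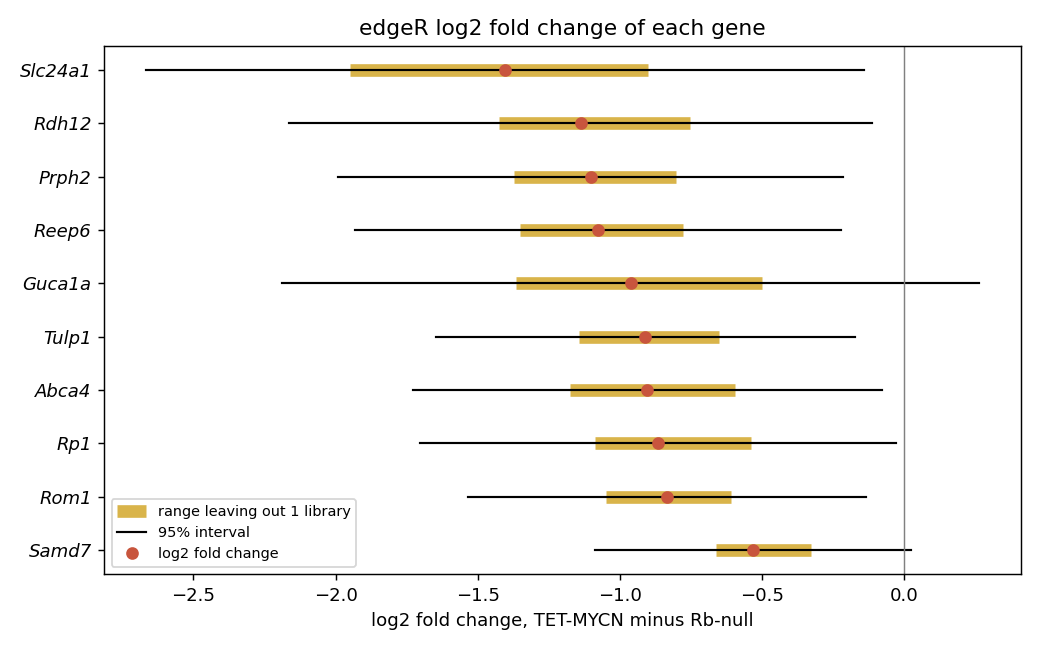
Log2 fold change of each gene (red point, TET-MYCN minus Rb-null, edgeR), its unadjusted 95% interval (black line) and the range when each of the 8 libraries was left out in turn (yellow bar). Every point and every yellow bar lies below 0, from -1.95 to -0.33 for the bars, while the intervals of Guca1a and Samd7 include 0.

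Across the 8 libraries the 10 genes varied together. Rb-null 3 had the highest level and TET-MYCN 4 the lowest for 10 of 10 genes, and Rb-null 2 was second lowest for 10 of 10. Their summed level was 3875, 2064, 7083 and 5361 CPM in Rb-null 1 to 4 and 3019, 2360.0, 2788 and 1390.0 CPM in TET-MYCN 1 to 4. The Rb-null libraries alone spanned a range that held all TET-MYCN libraries but the lowest. Over the 45 pairs of genes, Pearson's r of log2 CPM over 8 libraries had a median of 0.936, and 0.920 after the mean of each genotype was removed. These are descriptions: the points of all pairs are the same 8 libraries, with the same depths. The tightest pair was Abca4 with Slc24a1 (r = 0.996 over 8 libraries, 0.994 within genotypes), followed by Prph2 with Rdh12 (0.996 and 0.997). The loosest was Samd7 with Slc24a1 (0.746 and 0.623).

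**Figure D3:**
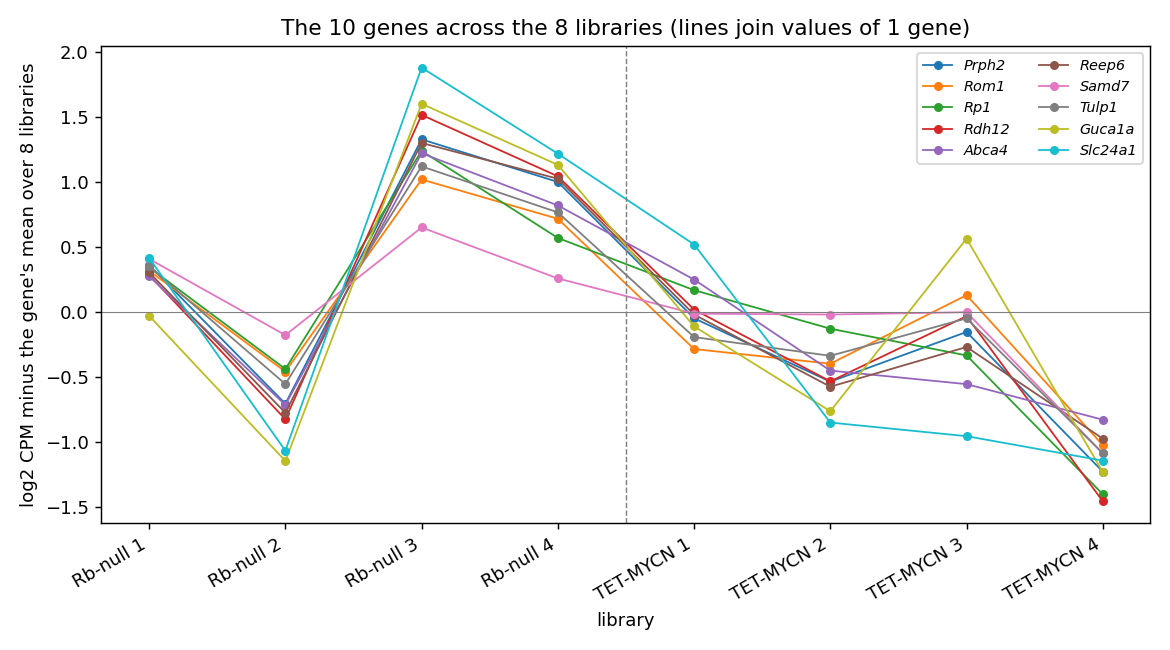
Log2 CPM of each gene minus its own mean over the 8 libraries (y axis), by library (x axis; the dashed line divides the genotypes, and lines only join the values of 1 gene). The 10 lines share a peak at Rb-null 3 and a low at TET-MYCN 4, Samd7 has the smallest excursions, and Slc24a1 and Guca1a part at TET-MYCN 3.

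The genes differed in how wide a range they covered. From the lowest to the highest of 8 libraries, Samd7 spanned 3.33-fold, Rom1 4.12-fold, Abca4 4.14-fold, Tulp1 4.61-fold and Reep6 4.83-fold. Prph2 spanned 5.88-fold, Rp1 6.23-fold, Guca1a 7.12-fold, Rdh12 7.84-fold and Slc24a1 8.12-fold. Set against Prph2, Reep6 held the narrowest range, with a CPM ratio of 0.151 to 0.195 over all 8 libraries. Samd7 ranged from 0.164 in Rb-null 4 to 0.395 in Rb-null 2, and Slc24a1 from 0.0598 in TET-MYCN 3 to 0.154 in TET-MYCN 1.

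**Figure D4:**
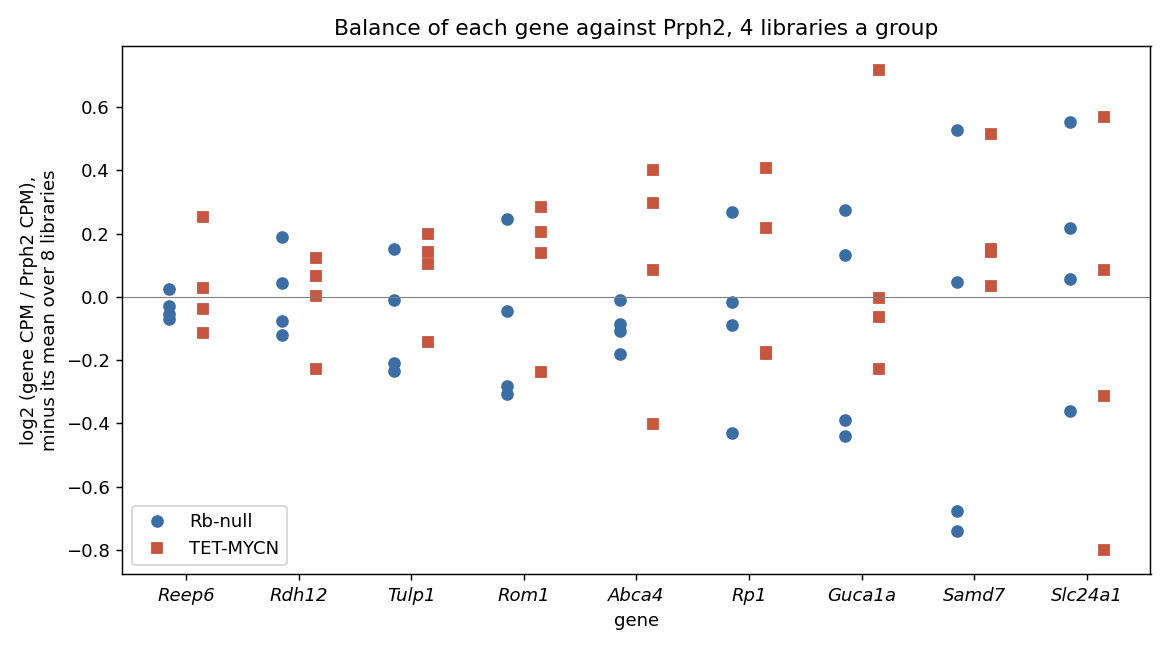
Log2 ratio of each gene's CPM to that of Prph2 in the same library, minus the gene's mean ratio over 8 libraries (y axis), for 9 genes ordered by range (blue circles, Rb-null; red squares, TET-MYCN). The groups overlap for all 9 genes, with the narrowest range for Reep6 and wide ranges for Samd7 and Slc24a1.

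On a scale that allows levels of different genes to be compared, CPM per kilobase of the longest annotated transcript, Rom1 (502 ± 198) and Prph2 (498 ± 258) led in the Rb-null libraries (SD, n = 4). Their order was not stable, with Rom1 above Prph2 in 5 of 8 libraries. Tulp1 followed at 290 ± 126 CPM per kilobase and was below Prph2 and above Rp1 in 8 of 8 libraries. Rp1 (100.1 ± 46.2), Reep6 (97.2 ± 51.4) and Samd7 (90.0 ± 20.6) did not differ beyond their spread, and Reep6 was above Samd7 in 2 of 8 libraries. Guca1a (54.3 ± 38.1), Abca4 (48.5 ± 24.2), Rdh12 (43.9 ± 26.1) and Slc24a1 (32.4 ± 22.8) came last. Guca1a was below Samd7, and Slc24a1 below Rdh12, in 8 of 8 libraries, while Guca1a was above Abca4 in 3 of 8. In the TET-MYCN libraries the same order held except that Samd7 (62.4 ± 18.9) moved above Rp1 (55.0 ± 21.5) and Reep6 (46.1 ± 12.6). The transcript length matters for this order: per kilobase of the median transcript, the Rb-null mean was 656 for Prph2, 521 for Tulp1 and 502 for Rom1, followed by 303 for Abca4, 191 for Rp1, 124 for Samd7, 100.9 for Reep6, 73.1 for Rdh12, 54.3 for Guca1a and 32.4 for Slc24a1.

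The promoters of the 10 genes were searched for short motifs of photoreceptor regulators, and why the transcripts varied together was not tested. RefSeq's GRCm38.p6 table gave a promoter of 300 bases (250 before and 50 from the start site) for 8 of them: Prph2, Rom1, Rdh12, Abca4, Samd7, Tulp1, Guca1a and Slc24a1. The letters searched on both strands were TAATCC, the core bound by the homeodomain factor CRX, TGCTGA, a half-site of the rod factor NRL, and CACGTG, the palindromic E-box bound by MYC and MAX family dimers. No 2 of these matches overlapped. TAATCC was found in 3 of 8 promoters, against 7.06% of 32851 promoters in the table, TGCTGA in 1 of 8, against 19.5%, and CACGTG in 0 of 8, against 7.15%. The 4 promoters with a match are shown for where the letters fall. Each is printed 5′ to 3′ on the strand of its gene, with matches in capitals, and GGATTA is TAATCC read on the other strand. They are Abca4 at chr3:122044210-122044509 (plus strand), Guca1a at chr17:47400557-47400856 (minus strand), Samd7 at chr3:30746043-30746342 (plus strand) and Rdh12 at chr12:79208663-79208962 (plus strand).
Abca4: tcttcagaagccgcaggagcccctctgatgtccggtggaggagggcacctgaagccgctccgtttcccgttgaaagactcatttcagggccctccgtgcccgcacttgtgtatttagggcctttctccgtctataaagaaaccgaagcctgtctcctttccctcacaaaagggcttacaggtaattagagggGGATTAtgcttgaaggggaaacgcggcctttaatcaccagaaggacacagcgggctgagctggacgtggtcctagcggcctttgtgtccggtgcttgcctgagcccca
Guca1a: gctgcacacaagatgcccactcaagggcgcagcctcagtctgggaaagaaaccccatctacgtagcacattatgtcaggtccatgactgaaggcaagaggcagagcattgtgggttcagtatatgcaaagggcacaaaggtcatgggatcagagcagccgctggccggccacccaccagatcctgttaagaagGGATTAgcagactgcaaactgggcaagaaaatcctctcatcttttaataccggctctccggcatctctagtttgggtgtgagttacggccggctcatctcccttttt
Samd7: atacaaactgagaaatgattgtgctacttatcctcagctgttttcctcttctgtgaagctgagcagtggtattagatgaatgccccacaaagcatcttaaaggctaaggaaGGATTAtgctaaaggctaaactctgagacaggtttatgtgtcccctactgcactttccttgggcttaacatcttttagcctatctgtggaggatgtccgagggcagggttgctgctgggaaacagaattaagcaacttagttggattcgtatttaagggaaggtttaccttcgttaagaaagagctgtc
Rdh12: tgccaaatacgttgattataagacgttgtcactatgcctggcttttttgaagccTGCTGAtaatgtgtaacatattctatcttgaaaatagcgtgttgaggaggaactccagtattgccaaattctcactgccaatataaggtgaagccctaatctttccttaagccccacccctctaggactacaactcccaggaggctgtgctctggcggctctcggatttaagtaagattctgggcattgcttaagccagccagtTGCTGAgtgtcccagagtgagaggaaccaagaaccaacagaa
In Abca4 and Guca1a the CRX letters lay at nearly the same distance, 58 to 53 and 57 to 52 bases before the start site, and in Samd7 139 to 134 bases before it. Rdh12 held TGCTGA 196 to 191 bases before the start site and again 9 to 14 bases into the transcript. A match of 6 letters describes the sequence and is not a measured binding site, and a promoter without one says only that these letters are not in this window.

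Other genes of the same pathways, taken from lists of symbols, mostly had negative log2 fold changes too, and none passed with edgeR. For the list counts here and in the next paragraphs, 47.8% of all genes tested were negative. At an unadjusted p under 0.05 with edgeR, 7.72% of all genes were lower and 8.06% higher. With DESeq2, 1.37% passed as lower and 2.14% as higher. For 3.29% of all genes the TET-MYCN libraries lay entirely below the Rb-null ones. Among disc and axoneme genes, 12 of 12 tested had a negative log2 fold change (median -0.67); 0 passed with edgeR, 8 were lower at an unadjusted p under 0.05 and 1 passed with DESeq2. Prom1, which organises evaginating disc membranes, had 582 ± 155 and 317 ± 79.7 CPM (SD, n = 4 each), with groups that did not overlap (-0.88 ± 0.23; adjusted p = 0.164, edgeR). Fscn2, an actin bundler of photoreceptors, had a log2 fold change of -1.22 ± 0.41, and Fam161a, a ciliary microtubule protein, -0.80 ± 0.28. In transport to the outer segment, where the list holds many general ciliary genes, 18 of 23 were negative (median -0.34). There 0 passed with edgeR, 7 were lower at an unadjusted p under 0.05, and 2 passed with DESeq2. Lca5, a ciliary protein that is mutated in a form of congenital blindness, varied little within the groups, at 76.6 ± 3.18 and 61.0 ± 2.26 CPM, and they did not overlap (-0.33 ± 0.08; adjusted p = 0.163, edgeR). Bbs7 and Bbs1, subunits of the BBSome, the coat complex of ciliary cargo, had log2 fold changes of -0.67 ± 0.17 and -0.37 ± 0.13. The groups did not overlap for Bbs7.

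Retinoid genes outside the set were listed by the cell taken to use them. The photoreceptor list also holds genes that are not limited to photoreceptors, so its median does not stand for photoreceptor-specific genes alone. Its log2 fold changes ran from -1.08 to 0.16. Of 8 tested genes of photoreceptor retinoid handling, 7 had a negative log2 fold change (median -0.20), with 2 lower at an unadjusted p under 0.05; 0 passed with edgeR or DESeq2. The leading ones were Rdh8, the outer segment retinal reductase (31.3 ± 19.2 and 14.8 ± 6.87 CPM; -1.08 ± 0.46), Rbp3, the retinoid carrier of the interphotoreceptor matrix (-0.70 ± 0.31), and Dhrs3, another retinal reductase (-0.59 ± 0.34). In the retinoid cycle of pigment epithelium and Müller glia, 8 of 9 tested genes were negative, with a median of -0.16, 1 lower and 1 higher at an unadjusted p under 0.05; 0 passed with edgeR, and 1 passed with DESeq2, as higher. Rdh5, the 11-cis-retinol dehydrogenase, was the positive one, at 7.11 ± 1.37 and 13.1 ± 4.60 CPM with groups that did not overlap (0.88 ± 0.25; adjusted p = 0.184, edgeR). Ttr, the thyroxine and retinol-binding protein carrier, had -1.48 ± 0.66, and Rlbp1, the 11-cis-retinal binding protein, -0.47 ± 0.23. Rpe65, the isomerase of the cycle, was under the filter on low counts, at 0.0608 to 2.10 CPM (Rb-null) and 0.0433 to 0.309 CPM (TET-MYCN); it is named after its values were seen.

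Of the pathway lists, those of cyclic GMP synthesis, of cones and of rods had the medians closest to that of the set, and the median of the bipolar cell markers, described with the other cell types, was as close (-0.99). Of genes for cyclic GMP synthesis and calcium, 12 of 12 had a negative log2 fold change (median -0.98); 0 passed with edgeR, 10 were lower at an unadjusted p under 0.05, and 1 passed with DESeq2. Cacna1f, the synaptic calcium channel of photoreceptors, had -0.81 ± 0.25, and Cngb1, a subunit of the rod cyclic GMP-gated channel, -1.06 ± 0.40. Of rod phototransduction genes, 13 of 13 were negative (median -1.08); 0 passed with edgeR, 7 were lower at an unadjusted p under 0.05, and 1 passed with DESeq2. Pde6b, a catalytic subunit of the rod phosphodiesterase, had groups that did not overlap (-1.78 ± 0.40; adjusted p = 0.157, edgeR), and Grk1 and Sag, a kinase and an arrestin that shut off the rod light response, had -0.98 ± 0.33 and -1.23 ± 0.43. Of cone phototransduction genes, a list that holds Grk1 as well, 11 of 11 were negative (median -0.86). At an unadjusted p under 0.05 there were 3, Grk1 included, and 0 passed with edgeR or DESeq2. Among the cone genes Arr3, the cone arrestin, had -1.001 ± 0.33 with groups that did not overlap. Gnb3, the cone transducin beta subunit, had -0.50 ± 0.20. Of matrix and adhesion genes, 6 of 6 tested were negative with a median of -0.54, 2 at an unadjusted p under 0.05, 0 passing with edgeR and 1 with DESeq2. Log2 fold changes were -0.70 ± 0.15 for the polarity gene Crb2 and -0.37 ± 0.13 for Impg2, a proteoglycan of the matrix. For both genes the groups did not overlap.

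Photoreceptor transcription factors had a median of -0.52, against -0.94 for the outer segment set, with 11 of 13 negative, 5 lower at an unadjusted p under 0.05, and 0 passing with edgeR or DESeq2. Nr2e3, Crx and Nrl, which specify and maintain rods, had log2 fold changes of -0.72 ± 0.27, -0.56 ± 0.22 and -0.66 ± 0.28. Of the possible partners listed for Samd7 in Polycomb complexes, Samd11 was not found under that symbol. The Polycomb genes of the list had a median of -0.03, with 6 of 9 negative. Of these 9 genes, 1 was lower at an unadjusted p under 0.05, and 0 passed with edgeR or DESeq2. Their leading values were -0.25 ± 0.11 for Cbx8, -0.12 ± 0.09 for Phc1 and 0.17 ± 0.13 for Pcgf2. The groups did not overlap for Cbx8 and Phc1. Whether any list differed from another was not tested.

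**Figure D5:**
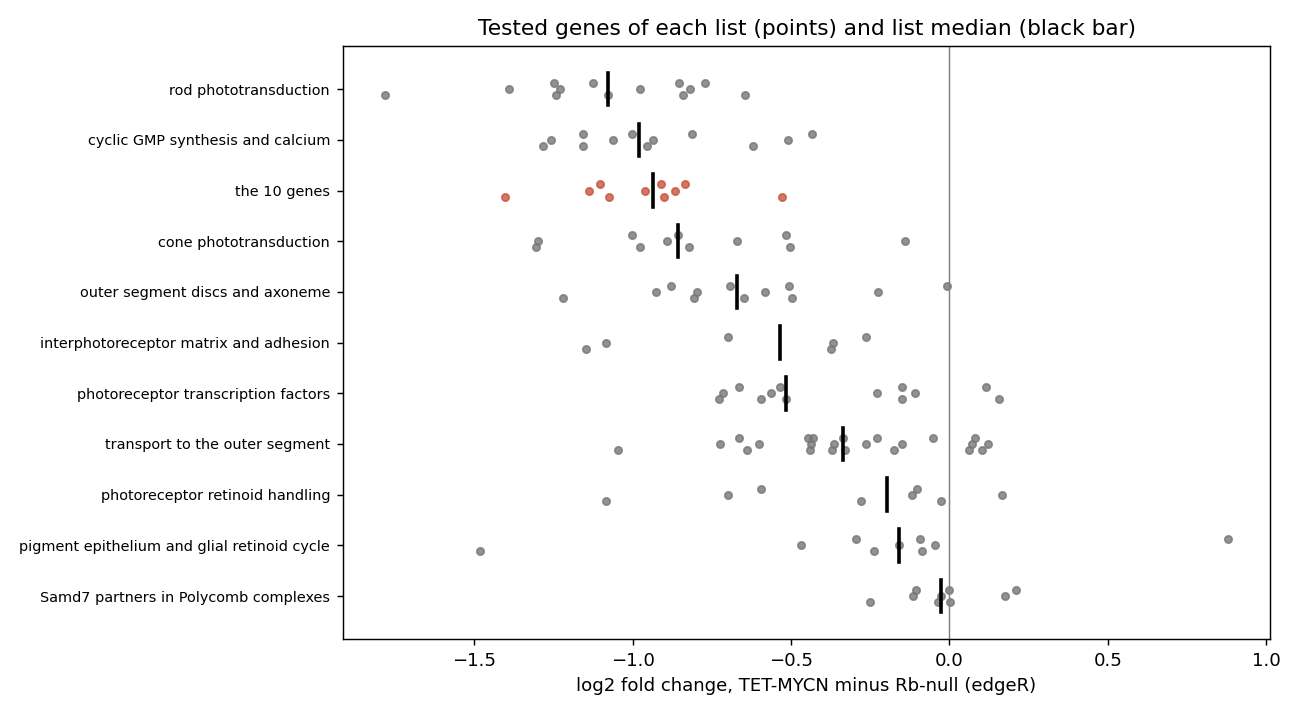
In this view of the pathway lists each point is the log2 fold change (edgeR, TET-MYCN minus Rb-null) of 1 tested gene, each black bar the median of its list, and the outer segment set is in red (the 10 genes are left out of the other lists). The set's median of -0.94 lies beside those of the cyclic GMP list (-0.98) and rod phototransduction (-1.08), and the median of the Polycomb list is -0.03.

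By likeness to the mean standardised profile of the set, the closest of 12329 other genes with a mean of at least 5 CPM was Nxnl1, which encodes rod-derived cone viability factor (Pearson's r = 0.999 over 8 libraries). Next came Lrit1, a synaptic leucine-rich repeat protein of photoreceptors (0.997), Rtbdn, a riboflavin-binding retinal protein (0.994), Uckl1 (0.993), Tdrd7 (0.993), Gnb1, the rod transducin beta subunit (0.993), Cdhr1, a cadherin at the base of the discs (0.992), and Slc17a7, a vesicular glutamate transporter of photoreceptor terminals (0.991). Of those 12329 genes, 447 (3.63%) had r above 0.9. These values are descriptions over the same 8 libraries and say nothing of shared control.

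Markers of other cell types were looked at in the same fit, and their log2 fold changes differed by list. For the counts below, 7.72% of all genes were lower at an unadjusted p under 0.05 with edgeR. TET-MYCN libraries lay entirely below the Rb-null ones for 3.29% of all genes, and 1.37% passed with DESeq2 as lower. The log2 fold changes of 11 of 11 bipolar cell markers were negative (median -0.99), and 8 were lower at an unadjusted p under 0.05; 0 passed with edgeR, and 4 had groups that did not overlap. With DESeq2, 5 of them passed as lower (among them Grm6, Gpr179 and Pcp2), where 0 of the 10 outer segment genes and 1.37% of all genes did. Of 9 Müller glia markers, 8 were negative (median -0.47), 5 lower at an unadjusted p under 0.05 and 4 with groups that did not overlap; 0 passed with edgeR, and 4 passed with DESeq2 as lower (Kcnj10, Aqp4, Glul and Clu). Of 10 markers of proliferating progenitors, 10 were positive (median 0.42), and 6 were higher at an unadjusted p under 0.05, against 8.06% of all genes; 0 passed with edgeR, and 2 passed with DESeq2 as higher (Hes5 and Ccnb1), against 2.14%. Of 10 ganglion cell markers, 9 were negative (median -0.52), and 4 were lower at an unadjusted p under 0.05. Of these 10 markers, 0 passed with edgeR and 1, Nefh, with DESeq2. Of 15 lens markers tested, 14 were negative (median -3.42), with 13 lower at an unadjusted p under 0.05, 0 passing with edgeR, 7 with DESeq2 and 0 with groups apart. Of 10 microglia and macrophage markers, 6 were positive and 4 negative (median 0.03), with 2 higher and 0 lower at an unadjusted p under 0.05. Only 1 of these 10, the macrophage elastase gene Mmp12, passed with edgeR, and also with DESeq2. Mmp12 was the one marker of any list called by edgeR, at 0.122 to 0.197 CPM in the Rb-null group and 1.73 to 24.6 CPM with TET-MYCN (adjusted p = 0.0348). The amacrine, horizontal cell and endothelial lists had medians of -0.08, 0.30 and -0.34, with 0 passing with edgeR or DESeq2. Of 10 pigment epithelium markers tested, 5 were positive and 5 negative (median -0.04), with 0 passing with edgeR and 1, Rdh5, with DESeq2 as higher. The marker genes named here were picked after their values were seen.

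The same markers were summed in each library. The summed level of 11 bipolar cell markers, none at 0 in any library, was 737 to 1513 CPM in the Rb-null group, lowest in Rb-null 2 and highest in Rb-null 3. With TET-MYCN it was 597 to 778 CPM, lowest in TET-MYCN 4. That of 10 proliferating progenitor markers was 1320 to 2664 CPM, lowest in Rb-null 3 and highest in Rb-null 2, and 2236 to 2747 CPM with TET-MYCN. The 9 Müller glia markers summed to 5336 to 7231 and 4041 to 5973 CPM, 9 amacrine markers to 1437 to 1675 and 1138 to 1744 CPM, 7 horizontal cell markers to 379 to 485 and 279 to 623 CPM, and 10 ganglion cell markers to 317 to 679 and 368 to 499 CPM. The 13 pigment epithelium markers summed to 48.7 to 94.7 and 50.2 to 124 CPM, 10 microglia and macrophage markers to 188 to 397 and 207 to 399 CPM, and 6 endothelial markers to 417 to 484 and 334 to 471 CPM. Beside the lens and erythrocyte lists, Mlana of the pigment epithelium was the one marker at 0 in any library. Of 6 erythrocyte markers Hba-a1, Hba-a2 and Hbb-b2 were listed at 0 in all libraries, Hbb-b1 and Slc4a1 at 0 in some, and all of them together summed to 0.453 to 6.49 CPM. The part of these cell types in the levels of the 10 genes was not tested. Without the lens-rich pair the median log2 fold change of the set was -0.93.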

How the data were processed

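The authors deposited 1 table of raw read counts per gene symbol for each of the 8 libraries. Per the submitters' processing notes, CASAVA 1.8.2, TopHat2 2.0.8b and HTSeq 0.5.4p3 were used with build mm9. Not given in the sources used here are their options, annotation and strand setting. Per the labels, RNA was Trizol-extracted and oligo-dT selected. HTSeq rows that name no gene (28.3% to 31.7% of each file) were left out. In GENCODE M21 (GRCm38), Rp1 and Abca4 overlap other annotated genes, and these have no rows in the files.

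Counts were scaled by TMM, and filterByExpr kept 15106 genes. The groups were compared with edgeR 4.0.16 (R 4.3.3), by glmQLFit with robust = TRUE and glmQLFTest, with no covariate and Benjamini-Hochberg adjustment at 0.05 over all genes tested. The SE is the absolute log2 fold change over the square root of F. Alternatives were DESeq2 1.42.0, limma-voom (limma 3.58.1), other scalings and filters, a replicate block, and each library left out. The code was tested on simulated data. No pair of libraries agreed within sampling noise. By chi-square per degree of freedom of their counts, the closest pair was Rb-null 2 with TET-MYCN 2, at 14.9. Rb-null 2 stood at 25.9 to 62.8 with the other Rb-null libraries. For likeness, log2(CPM + 0.5) was used. Figures used matplotlib 3.10.9.

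The genes and lists were chosen with earlier results of these data known. Named were all 10 genes, up to 3 genes with the smallest p in each pathway list, and the 8 genes most like the set. Some genes the rule takes are not reported here.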

Additional observations from a re-analysis of the deposited data

Results flagged for a closer look

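Within the groups of 4 libraries, 2 of 20 sets of values (10 genes in 2 groups) held a library far from the others by Dixon's test, which chance would give in about 1 of 20. Samd7 was at 107 CPM in TET-MYCN 4, against 224, 225 and 227 CPM in the other TET-MYCN libraries. Slc24a1 was at 124 CPM in TET-MYCN 1, against 39.2, 44.6 and 48.0 CPM in the others.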

How the results depend on the processing

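All 160 log2 fold changes of the 10 genes over the 16 alternative settings were negative, and none passed the threshold, with adjusted p from 0.0636 to 0.838. With each library left out, the median of the set ran from -1.22 (without Rb-null 2) to -0.63 (without Rb-null 3). The number of all genes called moved widely from 9: 17 with no filter on low counts, 530 with DESeq2, 0 with limma-voom (2262 before adjustment, at p under 0.05), 0 without the lens-rich pair of Rb-null libraries, and 0 to 230 with 1 library left out. Libraries with the same number did not deviate together (r from -0.32 to -0.03 over genes, and 0 of 8 libraries matched best with their own number), so the numbers are taken as names. A replicate block gave 3 calls, none among the 10 genes. Counts of the 10 genes were at least 212 per library, so the spread between libraries limits these comparisons more than depth.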
